A study of Caenorhabditis elegans with 2 samples.

Results

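The 7 genes described here, hif-1, daf-16, pqm-1, hlh-30, atfs-1, skn-1 and hsf-1, encode transcription factors that Caenorhabditis elegans uses under stress and starvation. They were chosen from 19973 nuclear protein-coding genes with earlier results of the same region lists known, so their counts and signals are a description and no test was made. For each gene, every region was taken that overlapped its span, from 3 kb upstream of the 5′ end to the 3′ end, in chromatin immunoprecipitation (ChIP-seq) lists for tagged SOX-4. SOX-4 is a Sox-family protein with an HMG-box DNA-binding domain.

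The animals were of strain OP517, genotype unc-119(tm4063) III; wgIs517, a transgenic line that stably expresses SOX-4 with GFP and FLAG fused to its C terminus. Whole hermaphrodite larvae of the first stage (L1) were used 6 hours after a synchronization in which hatchlings were starved after bleaching. The labels do not say whether the larvae were fed during those hours. Chromatin broken up by sonication was pulled down with an antibody to GFP, in a single group of 2 biological replicates. The promoter that drives the transgene is not given in the sources used here, and the 2 replicates come from the same line. Larvae without the tag were not analysed here, so whether any region needs SOX-4 was not tested, and neither was a possible control that the labels name.

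These factors let a larva match gene expression to food, oxygen and damage. HIF-1 is the hypoxia-inducible factor, degraded while oxygen is plentiful. DAF-16, the FOXO factor, enters the nucleus when insulin-like signalling is low and is needed for larvae to survive arrest without food. PQM-1 is a zinc-finger factor whose presence in the nucleus is opposed to that of DAF-16. HLH-30, the worm orthologue of TFEB, turns on autophagy and lysosome genes in starvation. ATFS-1 is a bZIP factor that goes to the nucleus when its import into mitochondria fails. SKN-1, related to mammalian Nrf factors, acts in detoxification and in early embryonic fate, and HSF-1 drives chaperone genes upon heat shock.

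Each replicate gave 30000 candidate regions, and so did both replicates jointly. These lists include background, and the authors' optimal list of 1497 regions was made from them by the irreproducible discovery rate (IDR), a measure of how well ranks repeat. The optimal regions were the 1497 candidates of highest signal in the list of both replicates, here called the pooled list. Signal is the authors' own value for each region. It ran from 51.33 to 550.1 in the optimal list, with a median of 76.2, and the median of all pooled candidates was 18.4. Median signal was 11.6 in the list of replicate 1 and 11.2 in that of replicate 2, so pooled and single-replicate signals are on different scales and are compared only within a list. Read depth is unknown.

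All 7 genes had at least 1 candidate in the span, as did 69.3% of coding genes, and together they had 70. An optimal region lay in the span of 4 genes, hif-1, daf-16, hlh-30 and atfs-1, and the share over all coding genes was 10.6%. Since the genes were chosen with these lists in view, nothing is read from that gap. Under narrower rules, 3 of the 7 genes (hif-1, hlh-30 and atfs-1) had an optimal summit from 1000 bp upstream to 200 bp downstream of the 5′ end, against 5.67% of coding genes. The same 3 had one in that window of any transcript start, against 6.05%. All 4 genes kept theirs when each optimal region was given only to the gene with the nearest coding start, where the share of coding genes was 6.53%. Only hif-1 and daf-16 had a region among the 748 strongest optimal ones, against 6.00% of coding genes, and only those 2 had a region among the 1497 strongest of both replicates, against 7.35%. By the 1497 strongest of replicate 1 alone the count was 3, without atfs-1, against 10.5%, and by those of replicate 2 alone it was 4, against 10.2%, with hlh-30 called there by another region than its optimal one. The spans were also long, from 5.21 kb at pqm-1 to 29.2 kb at daf-16, with a median of 12.35 kb, against a median of 5.03 kb over coding genes. The count of 4 of 7 stands against 13.2% of the 9152 coding genes with spans of at least 5.21 kb. Of the 4 factor genes with spans of at least 12.35 kb, daf-16 and hlh-30 had an optimal region and skn-1 and hsf-1 did not, against 20.0% of the 1142 coding genes of that length.

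**Figure D1:**
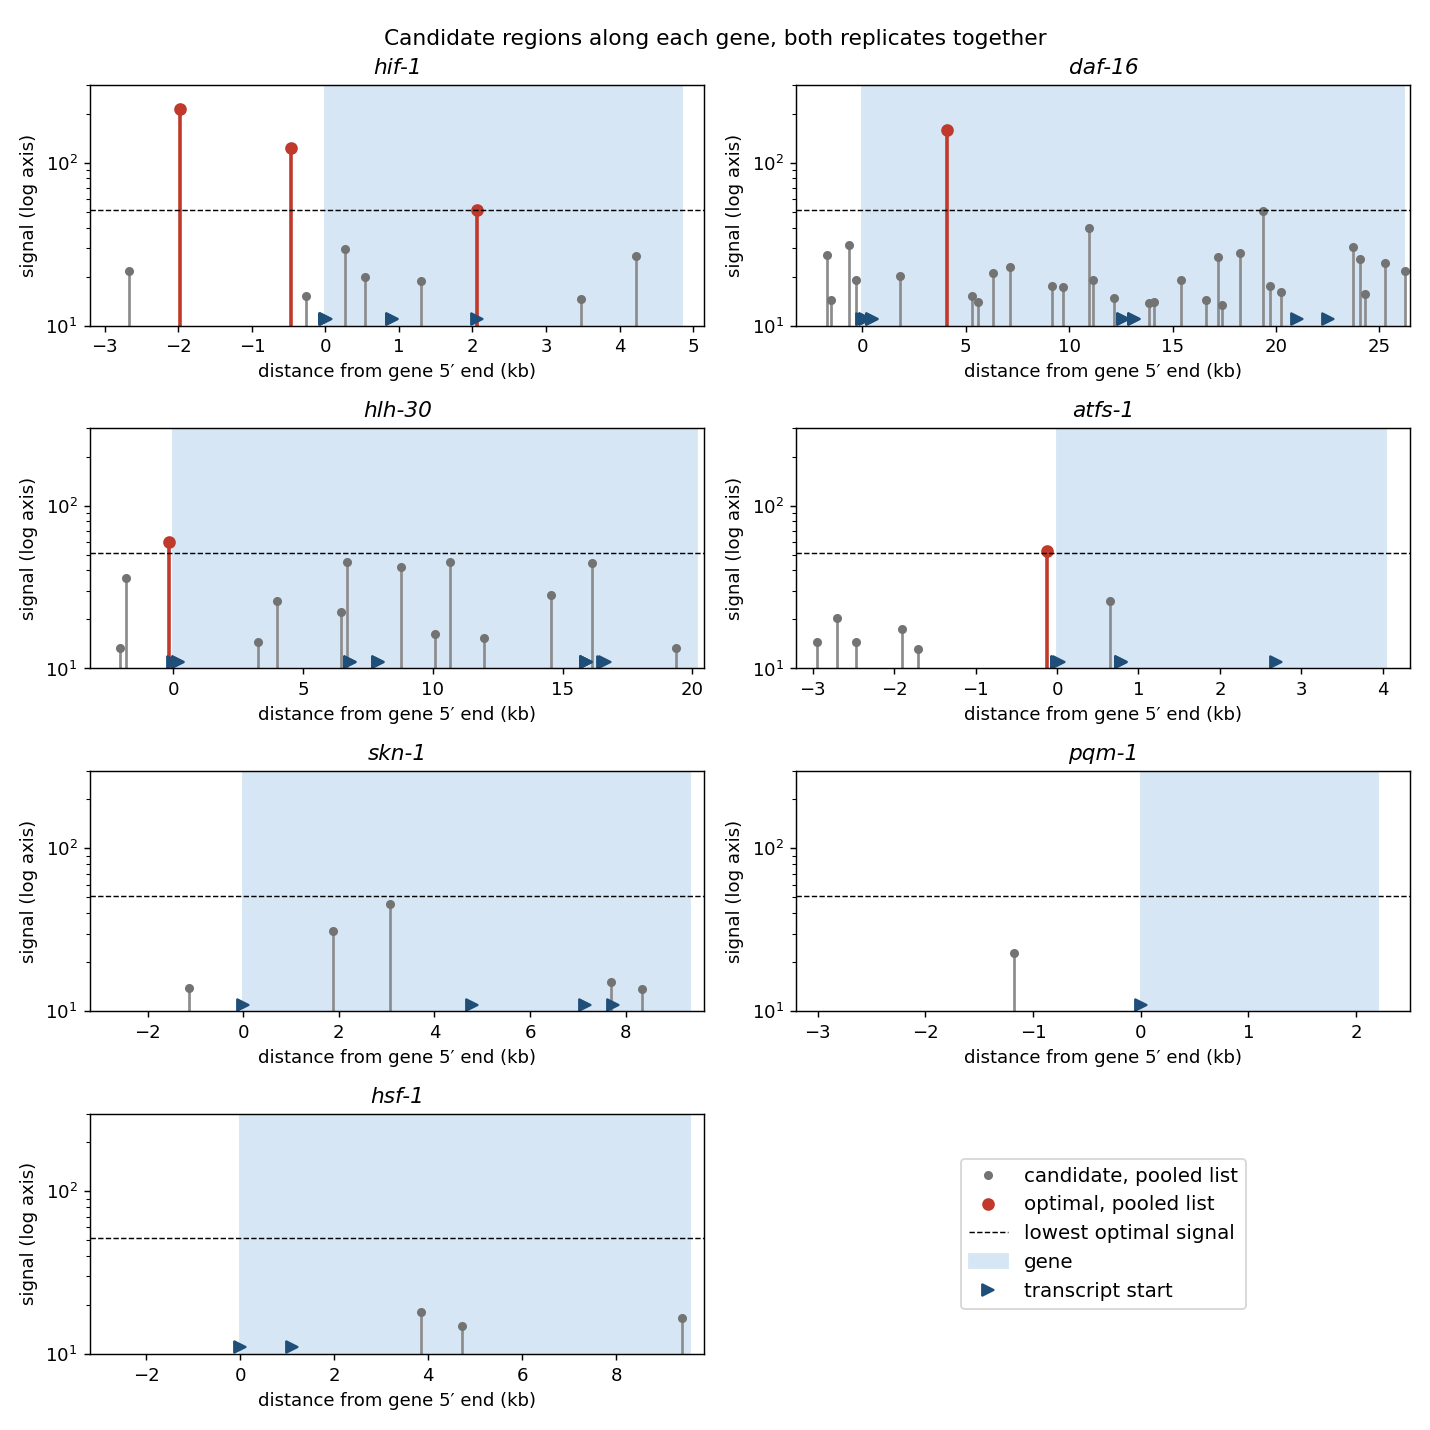
Candidate regions along each of the 7 genes, with distance from the gene's 5′ end in kb across and pooled signal on a log axis upwards. Red points are optimal regions, grey points are candidates below the optimal list, arrowheads are annotated transcript starts and the shaded band is the gene. The 6 optimal regions fall at hif-1 (3), daf-16, hlh-30 and atfs-1 (1 each), while the regions of skn-1, pqm-1 and hsf-1 stay under the dashed line at 51.33.

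The hypoxia factor gene hif-1 (WBGene00001851, chromosome V, 20780407 to 20785260, plus strand) had the strongest region of the 7 genes and 3 optimal regions, more than any of the others. Coordinates are on ce11, which is the assembly WBcel235. Of its 10 candidates, 7 overlapped a region in both replicate lists. The windows below show 101 bases centred on the summit of each of the 3 optimal regions, on the plus strand, because the regions differ in position and base composition. Capitals mark short words from a motif search, described further on, and the sequence is RefSeq's for WBcel235. The windows span chrV:20778374-20778474, chrV:20779885-20779985 and chrV:20782417-20782517.
hif-1, 1983 bp upstream: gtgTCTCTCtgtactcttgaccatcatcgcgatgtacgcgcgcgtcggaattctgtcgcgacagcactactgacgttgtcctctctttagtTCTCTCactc
hif-1, 472 bp upstream: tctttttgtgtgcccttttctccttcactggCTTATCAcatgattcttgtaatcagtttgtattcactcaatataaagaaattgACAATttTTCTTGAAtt
hif-1, 2060 bp downstream: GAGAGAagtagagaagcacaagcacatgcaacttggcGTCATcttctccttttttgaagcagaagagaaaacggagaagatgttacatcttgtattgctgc

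The distal hif-1 region, 223 bp wide with its summit 1983 bp upstream of the 5′ end, had a pooled signal of 213.2 and ranked 83 of 30000. Its signal was 102.5 in replicate 1 and 111.4 in replicate 2, where it ranked 100 and 87. The replicates thus gave almost the same value, and hif-1 had the nearest coding transcript start. The proximal region, 472 bp upstream, had a pooled signal of 123.5 (rank 330), with 44.7 in replicate 1 and 79.7 in replicate 2. That is a log2 ratio of 0.83 for replicate 2 over replicate 1, and 12.8% of optimal regions were farther from the median ratio of optimal regions. The window of the distal region held 52.5% G and C, and that of the proximal one 30.7%, against a median of 44.6% over optimal regions.

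The third optimal region of hif-1 lay inside the gene, 2060 bp from the 5′ end. Its summit fell in an intron 5 bp upstream of the start annotated for transcript F38A6.3c.1, the last of the gene's starts. The signal was 51.34 pooled, 23.4 in replicate 1 and 34.0 in replicate 2. At rank 1496 of 1497 it was the last but one in the optimal list, whose lowest value was 51.33, and the first candidate outside had 51.32. In replicate 1 alone it ranked 2213, below the 1497 strongest regions of that list, and in replicate 2 it ranked 1020. Transcripts of hif-1 start at 4 distinct positions, and the pair at 912 bp had no optimal region nearby: candidates with summits 376 bp upstream and 386 bp downstream of it had pooled signals of 19.9 and 18.7. A candidate in the intron 264 bp from the 5′ end had a pooled signal of 29.6, with 30.8 in replicate 1 and 18.8 in replicate 2.

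The FOXO gene daf-16 (WBGene00000912, chromosome I, 10750498 to 10776703, plus strand) carried the most candidates, 30, of which 20 were in both replicate lists. Its density of 1.03 candidates per kb was below the 1.27 of hif-1 and close to the 0.995 of atfs-1, whereas the median over coding genes was 0.244. The single optimal region was narrow, 112 bp from 10754532 to 10754643, and had a pooled signal of 159.2 (rank 180). Signal was 77.1 in replicate 1 and 79.2 in replicate 2, with ranks of 221 and 196. The summit lay in an intron, 4104 bp inside the gene and 3642 bp downstream of the nearest annotated starts, those of R13H8.1d.1 and R13H8.1k.1. It was thus strong in both replicates and far from every annotated start. Of all optimal regions, 23 (1.54%) were no wider. Narrow regions tended to be strong: the 280 optimal regions under the median width of 396 bp had a median signal of 165.4, and the others 69.4.

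Transcripts of daf-16 start at 7 distinct positions over 22501 bp. No optimal region lay within 1000 bp upstream to 200 bp downstream of any of them, and the strongest candidate in that window of the gene's 5′ end had a pooled signal of 31.4, at 635 bp upstream. The next strongest region of the gene missed the optimal list narrowly, with 50.59 at rank 1538. Its summit was 1637 bp upstream of the start of R13H8.1a.1, in an intron of the longer forms, and its signal was 26.9 in replicate 1 and 30.8 in replicate 2. A further intronic candidate, 1667 bp upstream of the starts of R13H8.1b.1 and R13H8.1c.1, had 39.5 pooled, 34.7 in replicate 1 and 21.4 in replicate 2. The replicate summits lay 121 bp and 167 bp from the pooled one, on opposite sides, so whether both mark the same site is not shown. Of the 30 candidates, 23 had their summit in an intron. Each of the 3 strongest was therefore intronic and more than 1 kb from a start.

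The gene of PQM-1 (WBGene00004096, chromosome II, 11150391 to 11152595, minus strand) had 1 pooled candidate, and its list of transcripts has 1 start. The summit lay 1178 bp upstream, with a pooled signal of 22.8 at rank 8747. Replicate 2 gave 18.9 (rank 3608), and the list of replicate 1 held no region in the span. The gene thus had no region that both replicates shared. The window chrII:11153723-11153823 is shown on the minus strand, the gene's own, because it held a Sox core word, capitalised as the reverse complement ATTGT, and the repeat word GAGAGA.
pqm-1, 1178 bp upstream: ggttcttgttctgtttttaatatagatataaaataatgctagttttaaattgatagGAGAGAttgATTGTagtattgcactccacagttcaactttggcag

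The TFEB orthologue gene hlh-30 (WBGene00020930, chromosome IV, 4014793 to 4034951, minus strand) had 14 candidates, 9 of them in both replicate lists, and 1 optimal region at its first start. The summit lay 171 bp upstream of the 5′ end with a pooled signal of 59.99 (rank 1151). Signal was 34.7 in replicate 1 and 20.3 in replicate 2, a log2 ratio of -0.78, and the ranks were 1015 and 3045. Replicate 1 therefore carried this call, which was outside the 1497 strongest regions of replicate 2. The window chrIV:4035072-4035172 is printed on the minus strand to show its base composition, 55.4% G and C, with the repeat word GAGAGA in capitals.
hlh-30, 171 bp upstream: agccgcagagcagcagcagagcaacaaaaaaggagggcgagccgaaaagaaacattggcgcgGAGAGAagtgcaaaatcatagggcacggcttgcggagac

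Below the optimal list, hlh-30 had a run of regions of similar signal along its introns and later starts. A region 142 bp upstream of the starts of W02C12.3b.1 and W02C12.3c.1 had a pooled signal of 44.85, with 29.5 in replicate 1. The overlapping region of replicate 2, at 25.1, had its summit 231 bp away. That summit was 14 bp from the summit of a neighbouring candidate with a pooled signal of 22.4. A region in a coding exon, 237 bp downstream of the start of W02C12.3a.2, had 44.67 pooled, 26.1 in replicate 1 and 18.4 in replicate 2. Both lay at internal starts, 6824 and 15912 bp into the gene, where later transcripts begin. A pair of further intronic regions had 44.73 and 41.7. In replicate 2 alone the strongest region of the gene was another one, with a signal of 32.8. It matched a pooled candidate of signal 28.2 in an intron 14568 bp from the 5′ end, where replicate 1 had no region.

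The mitochondrial stress gene atfs-1 (WBGene00013878, chromosome V, 14193663 to 14197700, plus strand) had 7 candidates and 1 optimal region, 126 bp upstream of the first start. The pooled signal was 52.2, at rank 1446, near the end of the optimal list. Signal was 15.1 in replicate 1 (rank 7392) and 33.5 in replicate 2 (rank 1055). The replicates disagreed more here than at any other optimal region of the 7 genes. The log2 ratio was 1.15, and 5.29% of optimal regions were farther from the median ratio of optimal regions. A candidate 132 bp upstream of the later starts, shared by ZC376.7a.1, ZC376.7b.1 and ZC376.7c.1, had a pooled signal of 26.1, with 20.7 in replicate 2 and no region in replicate 1. The other 5 candidates had summits within the upstream neighbour ints-2, an Integrator subunit gene, and none exceeded a pooled signal of 20.5. The window chrV:14193487-14193587, on the plus strand, is shown because its capitals mark the reverse complement of ACGTG, the core of the HIF-1 element.
atfs-1, 126 bp upstream: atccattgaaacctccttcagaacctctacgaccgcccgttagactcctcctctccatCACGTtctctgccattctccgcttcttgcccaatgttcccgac

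The Nrf-related gene skn-1 (WBGene00004804, chromosome IV, 5651039 to 5660384, minus strand) had 5 candidates and no optimal region. Its strongest lay in an intron 3080 bp from the 5′ end, 1699 bp upstream of the start of T19E7.2c.1, and had a pooled signal of 45.6 at rank 1840. Signal was 27.4 in replicate 1 (rank 1570) and 16.7 in replicate 2 (rank 5079), so the region was just outside the 1497 strongest of replicate 1. A second intronic candidate, 1882 bp from the 5′ end, had 30.95 pooled, 10.4 in replicate 1 and 13.8 in replicate 2. A weak candidate lay 47 bp upstream of the start of T19E7.2d.1, with 15.1 pooled and 15.5 in replicate 1, and replicate 2 had no region there. The candidate upstream of the gene, at 13.95, had its summit within bec-1, the Beclin gene of autophagy. The window chrIV:5657254-5657354 of the strongest region is shown on the minus strand, because it held the repeat word in reverse complement, as the distal window of hif-1 does. The region also overlaps the annotated noncoding RNA genes T19E7.26 and T19E7.27.
skn-1, 3080 bp downstream: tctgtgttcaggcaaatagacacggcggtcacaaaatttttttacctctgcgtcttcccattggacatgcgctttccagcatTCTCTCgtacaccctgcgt

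The heat shock factor gene hsf-1 (WBGene00002004, chromosome I, 11953507 to 11963085, minus strand) had the weakest leading region of the 7. None of its 3 candidates lay upstream of the gene or within 2 kb of its own starts, and the density of 0.238 per kb was close to the coding-gene median of 0.244. The strongest, in a coding exon 3843 bp from the 5′ end, had a pooled signal of 18.1 at rank 15496, near the median of 18.4 over all candidates. It had 12.4 in replicate 2 and no region in replicate 1. The candidate in the 3′ UTR had 16.6 pooled, 10.6 in replicate 1 and 13.5 in replicate 2. It was the gene's only one that overlapped a region in both lists. The summit of the replicate 1 region lay 343 bp from the pooled summit, downstream of the gene, and that of replicate 2 lay 72 bp away. Whether both mark the same site is thus not shown.

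The order of the strongest regions by pooled signal was hif-1, daf-16, hlh-30, atfs-1, skn-1, pqm-1 and hsf-1. At its strongest region hif-1 averaged 107 ± 6.33 over the replicates (SD, n = 2) and daf-16 78.2 ± 1.49. The means of the next 3 were 27.5 ± 10.2 for hlh-30, 24.3 ± 13.0 for atfs-1 and 22.1 ± 7.59 for skn-1. Both values of hif-1 lay above both of daf-16, and both of daf-16 above both of hlh-30. Taken over both replicates, the values of hlh-30, atfs-1 and skn-1 overlapped. Within each replicate hlh-30 lay above skn-1, at 34.7 and 27.4 in replicate 1 and 20.3 and 16.7 in replicate 2. The place of atfs-1 changed, from the lowest of the 3 in replicate 1 (15.1) to the highest in replicate 2 (33.5). Whether these 3 genes differ was not tested, and the line between an optimal and a lesser region fell among them. For pqm-1 and hsf-1, only replicate 2 had a region at the strongest candidate, so no spread can be given.

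**Figure D2:**
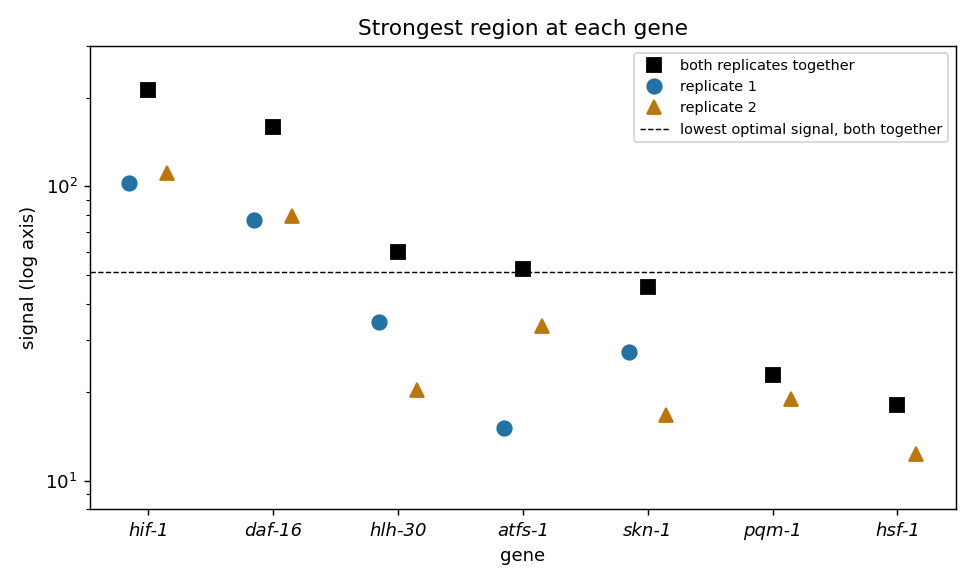
Signal of the strongest region at each gene on a log axis, in both replicates together (squares), replicate 1 (circles) and replicate 2 (triangles). The dashed line is the lowest pooled signal of the optimal list, 51.33. Replicate values of hif-1 and daf-16 nearly coincide, those of hlh-30, atfs-1 and skn-1 spread and overlap, and pqm-1 and hsf-1 have no circle because replicate 1 had no region there.

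Every one of the 6 optimal regions of the factor genes overlapped a region in both replicate lists, as 99.7% of all optimal regions did. A stricter reading, to be among the 1497 strongest of each replicate, held for 3 of the 6, the upstream pair of hif-1 and the intronic region of daf-16, against 65.3% of the optimal list. The regions at hlh-30, atfs-1 and the internal start of hif-1 each passed in a single replicate. The median log2 ratio of replicate 2 over replicate 1 was -0.03 over optimal regions, with quartiles of -0.36 and 0.32. Of the 64 candidates of the 7 genes below the optimal list, 37 (57.8%) were in both replicates, and of all such candidates 41.5%. Overlapping pooled candidates can share a replicate region, so these 64 are not independent.

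**Figure D3:**
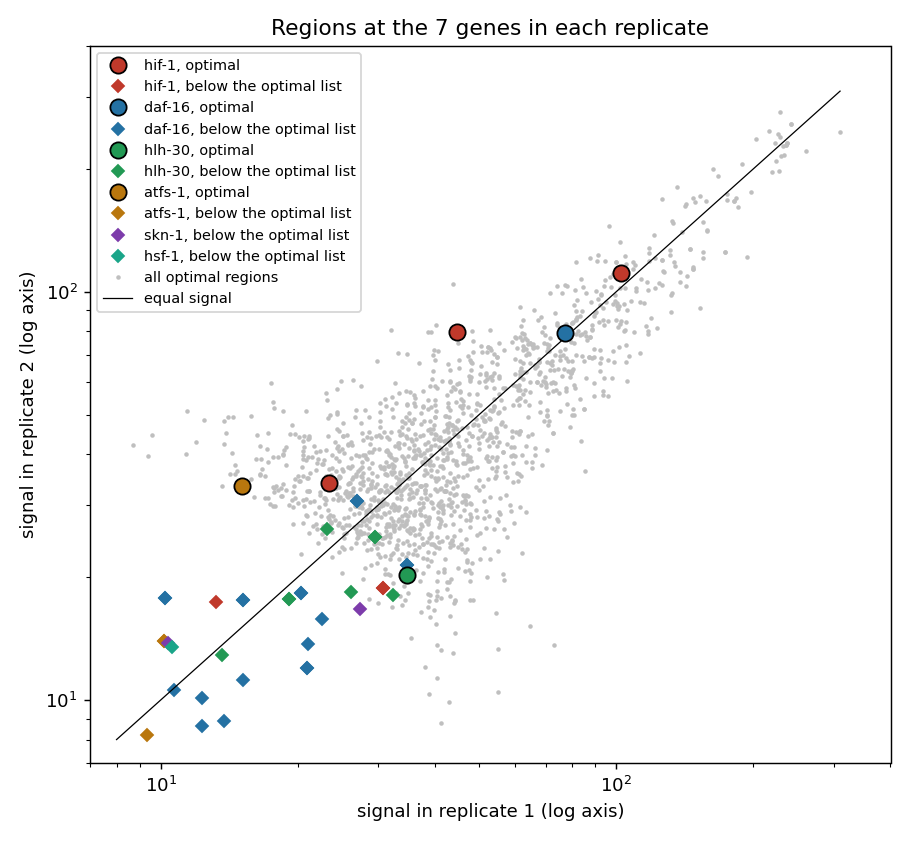
Signal in replicate 1 across and in replicate 2 upwards, both on log axes, for regions of the 7 genes found in both replicates (coloured) and for all optimal regions (grey). Circles are optimal regions and diamonds are candidates below the optimal list, and the line marks equal signal. Each point takes the strongest overlapping region of each replicate, so a weak candidate can stand at the values of its neighbour. A hif-1 candidate with a pooled signal of 15.3 thus stands at 44.7 and 79.7, the values of the proximal optimal region. The distal hif-1 region and the daf-16 region lie on the line, atfs-1 lies above it at 15.1 and 33.5, and hlh-30 below it at 34.7 and 20.3. No region of pqm-1 was in both replicates.

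The optimal regions of the factor genes lay nearer to starts than their other candidates. Summits fell within 500 bp of a coding transcript start at 4 of the 6 optimal regions, against 780 (52.1%) of all optimal regions. Below the optimal list this held for 11 of 64 candidates (17.2%) of the 7 genes, and for 26.0% of all candidates there. The exceptions were the distal region of hif-1 and the intronic region of daf-16, which were also the 2 strongest. Summits of the 70 candidates fell mostly in introns (40) and upstream of the gene (19), with 7 in coding exons, 3 in 3′ UTRs and 1 downstream. Median G and C content around the summit was 48.5% at the 6 optimal regions and 35.6% at the other 64, against 44.6% and 31.7% over the series.

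In the 101 bases around each summit, 9 short words were looked for in either orientation, among them words from the sites of the factors themselves. The Sox core words were ACAAT and also ACAAAG. The E-box of HLH-30 and of MXL proteins was CACGTG, and the core of the HIF-1 element was ACGTG. DAF-16 was represented by GTAAACA, PQM-1 by CTTATCA and SKN-1 by GTCAT, a part of its site. The unit of the heat shock element was TTCNNGAA, and the last word was GAGAGA, a simple repeat. A match is a description of the letters and not of a bound factor, and a word that is missing says only that these letters are not in the window. Every CACGTG also counts as an ACGTG.

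The repeat word GAGAGA was the most frequent, at 3 of the 6 optimal regions of the factor genes: the distal and internal regions of hif-1 and the region of hlh-30. It stood in 19.4% of all optimal windows and in 6.02% of the other candidates. The strongest regions of skn-1 and pqm-1 held it too. The proximal hif-1 window held the Sox core word ACAAT, the PQM-1 word CTTATCA and the heat shock unit TTCNNGAA. The internal hif-1 window also held GTCAT. Shares of optimal windows and of the rest were 1.27% and 1.68% for CTTATCA, and 4.54% and 6.75% for TTCNNGAA. Both words were thus rarer in optimal windows. Within 100 bp of the summit the shares of CTTATCA were closer, at 3.07% and 3.29%, and those of TTCNNGAA were 10.8% and 13.2%. Optimal windows also held more G and C, and no share was adjusted for base composition. For GTCAT the shares were close, at 16% and 14%. The word ACAAT was at none of the other 5 optimal regions, and its shares were 23.2% of optimal windows and 29.0% of the rest, so its share was lower in optimal windows. The other Sox word, ACAAAG, was at none of the 6, and neither was the DAF-16 word GTAAACA. These counts depend on the window: over the whole deposited regions ACAAT was at 3 of the 6, against 61.3% of optimal regions and 74.4% of the other candidates, and ACAAAG at 1, against 17.0% and 20.0%. The daf-16 window held CACGTG, an E-box, which stood in 5.41% of optimal windows and 1.84% of the others, and the atfs-1 window held ACGTG, with shares of 15.4% and 8.27%. The window of the strongest hsf-1 candidate held GTCAT.

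Genes whose strongest region had replicate values most like those of the factor genes were found among 2116 coding genes with an optimal region in the span. The measure was the distance between log2 signals over the 2 replicates. For hif-1 these were hpr-9 and lron-10, which share a region of signal 98.3 in replicate 1 and 110.3 in replicate 2, at a distance of 0.06. For daf-16 they were F35D11.4 and coa-3, which share a region of 78.9 and 79.1 (distance 0.03). For hlh-30 they were Y42H9AR.1 and Y42H9AR.4, with a shared region of 34.2 and 20.1 (distance 0.02). For atfs-1 they were D1007.10 and rpl-24.1, with a shared region of 15.8 and 34.8 (distance 0.09). With 2 samples, such likeness describes only signal and its split between the replicates.

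Genes that act with the 7 factors were taken from 8 lists of 118 genes. An optimal region overlapped the span of 39 of them (33.1%), against 10.6% of coding genes. These lists were also drawn up with earlier results known, and the median span of their genes was 7.09 kb, against 5.03 kb. With the summit required between 1000 bp upstream and 200 bp downstream of the 5′ end, the count was 21, against 5.67% of coding genes. At 16 of the 39 genes the strongest region was nearer to the start of another coding gene, which is named below for those described. In the list medians of strongest signal given below, genes without any candidate were counted as the lowest values.

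Around HIF-1, 3 of 10 genes had an optimal region, 1 of them in the promoter window, and the median strongest signal of the list was 31.5, against 18.4 over coding genes. The strongest was at egl-9, the prolyl hydroxylase that marks HIF-1 for destruction. It lay 1755 bp upstream with a pooled signal of 129.1, and 60.5 in replicate 1 and 72.7 in replicate 2. The region of cysl-1, a cysteine synthase-like regulator of EGL-9, had 79.9 but was nearest to ZC506.1, and that of elc-1, an elongin C gene, had 74.1 and was nearest to Y82E9BR.3. The gene of the ubiquitin ligase subunit that recognises hydroxylated HIF-1, vhl-1, had no optimal region and a strongest signal of 33.6. The hydroxylase gene and hif-1 itself thus both carried upstream regions with signals over 100.

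In the insulin pathway upstream of DAF-16, 8 of 19 genes had an optimal region, and the median strongest signal was 46.3. With the summit required in the promoter window of the gene's 5′ end, 2 of the 19 did. The highest was 166.5 at ftt-2, a 14-3-3 gene whose protein holds DAF-16 in the cytoplasm, with 112.9 in replicate 1 and 70.9 in replicate 2. The region of smk-1, a cofactor of DAF-16, had 116.2 and was nearest to vps-60. The kinase genes akt-1 (98.0) and pdk-1 (76.4) followed, at 2191 bp upstream and in an intron. The gene of the receptor itself, daf-2, had 27 candidates over a span of 49.3 kb and no optimal region, with a strongest signal of 33.6. A further 14-3-3 gene, par-5, had 55.4, with the summit downstream of the gene. The calls thus included these 14-3-3 genes and the kinase genes akt-1 and pdk-1, but not the receptor gene. They also did not include the kinase genes age-1, akt-2 and sgk-1, with strongest signals of 15.5, 42.2 and 23.8.

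For HLH-30, 5 of 14 genes among its TOR and MXL regulators had an optimal region, 3 of them in the promoter window, and the median strongest signal was 25.7. The strongest, 182.6 upstream of the TORC2 gene rict-1, was nearest to gfm-1. The repressor gene mxl-3, whose product competes with HLH-30 at lipase genes, had 61.7 at 1868 bp upstream, with 24.5 in replicate 1 and 41.9 in replicate 2. The folliculin gene flcn-1 had 57.0, with 40.5 in replicate 1 and 11.3 in replicate 2, and rheb-1, for a GTPase that activates TOR, had 53.7 nearest to spk-1. Replicate 1 thus stood well above replicate 2 at flcn-1, as it did less widely at hlh-30.

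For ATFS-1, 5 of 12 genes of the mitochondrial stress response had an optimal region, 4 of them in the promoter window, with a list median of 28.0. The strongest of all the pathway genes after hsp-90 lay upstream of the chaperonin gene hsp-60, at 328.7 pooled, 157.0 in replicate 1 and 167.2 in replicate 2, and was nearest to Y22D7AL.10. The histone demethylase gene jmjd-1.2 had 167.1 at 345 bp upstream. The protease gene clpp-1 had 80.5, nearest to mdt-22, and the mitochondrial Hsp70 gene hsp-6 had 68.9, nearest to C37H5.5. All 4 were stronger than the region of atfs-1.

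For SKN-1, 11 of 16 genes had a candidate, and the median strongest signal over all 16 was 20.6, near the 18.4 of coding genes. The count with an optimal region was 2 of 16, or 12.5%, near the 10.6% of all coding genes. These were the MAP kinase gene mpk-1, with 83.6 in an intron, and brap-2, with 63.95 downstream of the gene and nearest to ndx-6. Neither summit lay in the promoter window of the listed gene itself. For HSF-1 the count was 8 of 13, the highest share of the 8 lists, 7 of them in the promoter window. The list median was 60.4. The 8 included hsp-16.2 and hsp-16.41, which share 1 region of signal 60.4, in the promoter window of each. Without replicate 1 the count was 6, and without replicate 2 it was 8. The strongest was 361.5 at the Hsp90 gene hsp-90, with 167.6 in replicate 1 and 191.8 in replicate 2, in an intron and nearest to C47E8.4. The Hsp70 gene hsp-1 had 199.5, the Hsp40 gene dnj-13 had 140.0, and hsp-110 had 122.8 nearest to rpn-3. These 4 chaperone genes thus carried far stronger regions than hsf-1, whose own highest signal was 18.1. Not all genes of the list did. Those without an optimal region were hsb-1, ddl-1, hsp-12.6, ddl-2 and hsp-70, with strongest signals of 46.3, 25.1, 20.0, 18.5 and 16.7.

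Of 12 energy-sensing genes, 4 had an optimal region, 1 of them in the promoter window, with a list median of 35.0. The AMP kinase subunit gene aak-2 had 144.2 in an intron, the subunit gene aakg-1 had 98.5, and crh-1 and crtc-1, for CREB and its coactivator, had 90.9 and 54.9. Among 22 other stress and starvation regulators, 4 had one, 3 of them in the promoter window, with a list median of 29.2: atf-4 (115.1, nearest to T04C10.3), cebp-1 (108.4), atf-7 (82.0) and atf-6 (62.6). Of these, atf-4, atf-6 and atf-7 encode bZIP factors of the ATF family, and cebp-1 a C/EBP factor. Shares over the lists ran from 12.5% for SKN-1 to 61.5% for HSF-1.

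**Figure D4:**
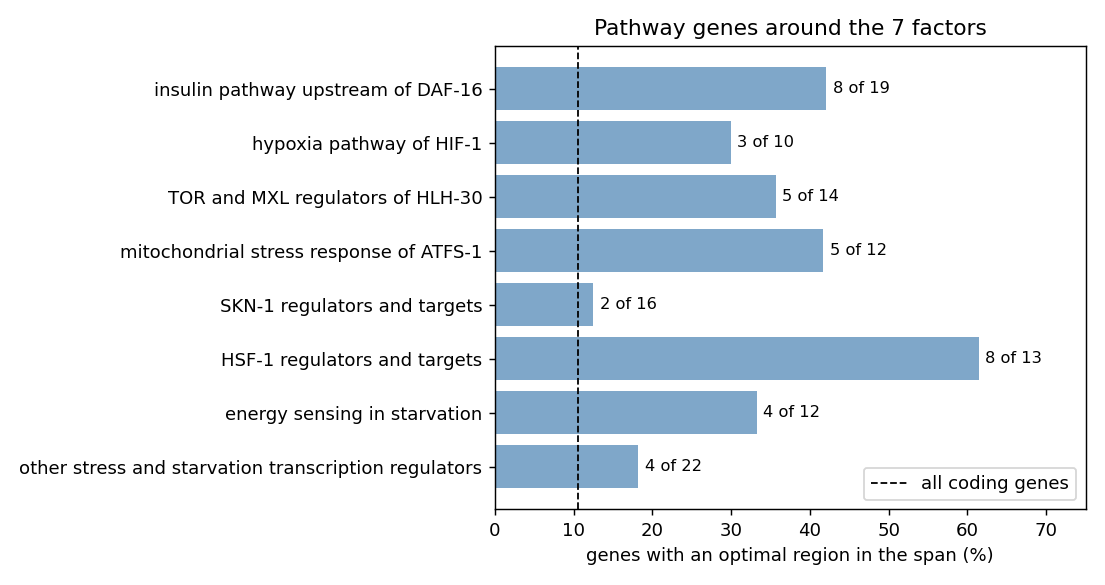
Share of genes in each of the 8 pathway lists with an optimal region in the span, in percent, with counts at the bar ends and the share of all coding genes (10.6%) as a dashed line. The HSF-1 list stands highest at 8 of 13 and the SKN-1 list lowest at 2 of 16, close to the line.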

How the data were processed

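ChIP-seq for tagged SOX-4 was deposited as region lists for 2 biological replicates, for both together and as an optimal list. The signal of each region is the authors' deposited value, which served here to rank regions within 1 list and to describe them. Per the file notes, each list was called with a control alignment. The sources used here give neither the caller nor its settings nor the IDR threshold, and without read counts no depth or counting interval can be given. Lists on ce11 were used, with genes from Ensembl release 115 and sequence from RefSeq, both for WBcel235. A region belonged to a gene when it overlapped the span by at least 1 bp, and a replicate value is that of the strongest overlapping region. All columns of values could be mapped to a sample or list.

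The 7 genes, the pathway lists and the motif words were chosen with earlier results of these data known. Named were all 7 genes, up to 4 genes with the strongest optimal region in each list, the nearest start of each region described, and the 2 most similar genes. The other genes named were chosen after their values were seen. They were vhl-1, daf-2, age-1, akt-2, sgk-1, par-5, hsp-16.2, hsp-16.41, hsp-70, hsp-12.6, hsb-1, ddl-1, ddl-2, ints-2, bec-1, T19E7.26 and T19E7.27. Alternatives covered the window, the nearest start, stricter regions, each replicate alone, motif windows and span length. Overlap counting was tested on simulated data. Computations used Python 3.11.15, numpy 2.4.6 and pandas 2.3.3.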

Additional observations from a re-analysis of the deposited data

How the results depend on the processing

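The strongest signals come from both replicates together, and values from 1 replicate alone are on a lower scale. Without a replicate they were 102.5 to 111.4 at hif-1, 77.1 to 79.2 at daf-16, 32.8 to 34.7 at hlh-30, 15.1 to 33.5 at atfs-1, 16.7 to 27.4 at skn-1 and 10.6 to 13.5 at hsf-1. At pqm-1 the value was 18.9 without replicate 1, and without replicate 2 there was none. Each value is that of the strongest region in the span in the replicate kept, which need not be the same site. At hlh-30 the values came from different regions, and its optimal region had 34.7 in replicate 1 and 20.3 in replicate 2. At hsf-1 both came from regions overlapping the candidate in the 3′ UTR, which was not its strongest. Without replicate 1, 4 of the 7 genes had a region among the 1497 strongest, hlh-30 by another region than its optimal one, and without replicate 2 there were 3, atfs-1 being lost. Only hif-1 and daf-16, 2 genes, had one among the strongest of both replicates, and the same 2 had one among the 748 strongest optimal regions. In the promoter window, 3 of the 7 genes had an optimal region, against 5.67% of coding genes. A candidate lay there at 4 of the 7, against 37.8% of coding genes. The strongest signal in that window was 123.5 at hif-1 and 31.4 at daf-16, and skn-1, hsf-1 and pqm-1 had no candidate there. Background counts over coding genes, 2120 in the span, were 1133 in the promoter window, 1208 at any transcript start, 1305 by nearest start and 1198 for the 748 strongest. Chosen after seeing the data, spans of at least 12.35 kb left 2 genes with an optimal region, daf-16 and hlh-30. Pathway genes called were 21 in the promoter window, against 39 in the span. Matches of a motif word to one of the 6 optimal regions were 18 over the whole deposited regions, against 10 within 50 bp of the summit. No paired analysis was possible because there was 1 group. Depth is unknown, so a gene without an optimal region is not shown to lack binding.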
